A study of Mus musculus with 2 samples.

Results

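Messenger RNA of 10 genes of pulmonary surfactant and its storage organelle, the lamellar body, was followed through the cell classes of mouse lungs after allergen challenge. The genes were taken by symbol from the feature list of the deposited matrices, which holds 32285 genes, and all 10 were found there. They are Sftpa1, Sftpb, Sftpc, Sftpd, Abca3, Lpcat1, Napsa, Lamp3, Slc34a2 and Sfta2. They were taken for what their proteins do, by a rule that holds no measured value. They also took no part in naming cell classes or in shaping the clusters, so their levels across classes are free of that choice. The scoring by which doublets were removed did not leave them out.

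Surfactant is a film of phospholipid and protein that lowers surface tension at the air side of the alveolus. Alveolar type 2 (AT2) cells assemble it, store it in lamellar bodies and secrete it by exocytosis, and they also renew the alveolar epithelium. The hydrophobic proteins SP-B (Sftpb) and SP-C (Sftpc) spread and stabilise the lipid film, while the collectins SP-A (Sftpa1) and SP-D (Sftpd) are soluble lectins of innate defence. Club cells of the small airways are known to make SP-A, SP-B and SP-D, whereas SP-C is regarded as particular to AT2 cells.

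The lungs came from C57B6/J mice, either labelled Plaur KO, that is lacking the urokinase receptor uPAR, or WT. Every mouse of either genotype received LPS (bacterial lipopolysaccharide) with OVA (ovalbumin) on days 0 and 7 and an OVA aerosol on day 14, and no unchallenged group is analysed here. Cells negative for CD45.2, a surface protein of blood-derived cells, were sorted and read by droplet 3' RNA sequencing in 2 libraries, 1 per genotype. The cell type label of both libraries reads Total Lung Cell Lysate. The design names 8 mice per genotype. How many of them went into a library, their age and the kind of Plaur allele are not in the labels. With 1 library per genotype no difference between the libraries has a replicate check, no test was run, and every interval covers counting error only. Droplet dissociation loses cells unevenly, so shares of cells are not shares in the lung.

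The Plaur KO-labelled library held 9771 barcodes and 51529241 unique molecular identifiers (UMIs), the WT library 11776 barcodes and 57028943 UMIs. Cell filters and doublet removal left 8972 KO-labelled and 10247 WT cells, with medians of 5543 and 4843 UMIs per cell. The libraries shared 30 barcode sequences, 27 of them among kept cells. Plaur mRNA was counted in both libraries, with 655 of 37629208 UMIs in KO-labelled and 56 of 25138609 UMIs in WT AT2-like cells. It was thus higher in the library labelled KO, opposite to what a loss of the message would give. The transcript does not show the knockout, so the labels could not be checked by it. The genotype is given throughout as labelled, and the direction of every difference between the libraries rests on the labels. Scrublet marked 1.5% of KO-labelled and 5.49% of WT cells as doublets. AT2-like cells, named from 13 markers that exclude the 10 genes, numbered 5817 (64.8%) in the KO-labelled and 3804 (37.1%) in the WT library. Their defining markers were present in both, with Cxcl15 at 7295 CPM in KO-labelled and 6914 CPM in WT cells and Hc at 1756 and 1529 CPM. CPM stands for the UMIs of a gene scaled to all UMIs of the class in that library. Reads come from the 3' end of a message, and levels are compared between cells and libraries, not between genes.

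In the GENCODE annotation of GRCm38, the build also called mm10 in the submitters' processing notes, the collectin genes Sftpa1 (chr14:41131782-41136452, plus strand) and Sftpd (chr14:41172214-41185149, minus strand) lie close together. Sftpc is on the same chromosome (chr14:70520949-70524081, minus strand), and Sftpb on another (chr6:72304610-72314371, plus strand). Abca3 spans chr17:24351950-24410201 on the plus strand in 32 exonic blocks, and Sfta2 chr17:35601549-35650571 on the plus strand. Lpcat1 spans chr13:73467197-73516422 and Napsa chr7:44572380-44586862, both on the plus strand. Lamp3 spans chr16:19653378-19706375 on the minus strand and Slc34a2 chr5:53038081-53071664 on the plus strand. Abca3, Napsa, Slc34a2 and Sfta2 overlap genes on the opposite strand that are also in the feature list (D330041H03Rik, Gm15396, Gm17182, and Gm9573 with Mucl3). Whether the counting used strand is not given in the sources used here, so for these 4 genes reads of the partner cannot be told apart from their own.

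The upstream sequences of 4 genes are shown because their messages divided into opposite directions across the AT2-like states described further on, Sftpa1 and Lamp3 on one side and Sftpb and Abca3 on the other. RefSeq promoter sequences (GRCm38.p6) were at hand for 7 of the 10 genes and not for Sftpc, Sftpd and Napsa. Each runs 5' to 3' on the gene's own strand from 250 bases before the RefSeq start site up to the first base of a GENCODE exon of that gene. Capitals mark matches on either strand to CTCAAG, a motif of the NKX2-1 type, TGTTTNC, of the forkhead FOXA type, or TTGCNNAA, of the C/EBP type. The regions are chr14:41131538-41131781 on the plus strand for Sftpa1, chr16:19706376-19706615 on the minus strand for Lamp3, chr6:72304360-72304609 on the plus strand for Sftpb and chr17:24351773-24351949 on the plus strand for Abca3.
Sftpa1: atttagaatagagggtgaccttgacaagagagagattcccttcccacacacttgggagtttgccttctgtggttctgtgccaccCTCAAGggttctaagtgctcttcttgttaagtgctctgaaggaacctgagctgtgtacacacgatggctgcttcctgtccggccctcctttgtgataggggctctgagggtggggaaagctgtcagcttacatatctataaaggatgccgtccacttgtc
Lamp3: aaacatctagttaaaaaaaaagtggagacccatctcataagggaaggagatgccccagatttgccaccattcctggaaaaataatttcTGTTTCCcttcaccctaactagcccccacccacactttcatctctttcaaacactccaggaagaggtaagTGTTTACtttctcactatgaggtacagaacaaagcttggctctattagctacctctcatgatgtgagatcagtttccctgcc
Sftpb: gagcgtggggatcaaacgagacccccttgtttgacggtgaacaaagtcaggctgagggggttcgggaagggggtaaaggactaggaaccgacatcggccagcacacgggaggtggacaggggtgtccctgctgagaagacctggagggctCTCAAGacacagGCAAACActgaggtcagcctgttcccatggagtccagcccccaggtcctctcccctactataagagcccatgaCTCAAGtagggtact
Abca3: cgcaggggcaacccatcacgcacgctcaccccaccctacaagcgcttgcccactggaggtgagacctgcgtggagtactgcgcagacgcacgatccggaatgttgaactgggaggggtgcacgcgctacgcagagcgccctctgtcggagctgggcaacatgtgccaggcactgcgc

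CTCAAG stood at -166 to -161 from the start site of Sftpa1, at -100 to -95 and -15 to -10 of Sftpb, and at -155 to -150 of Sfta2. Among 32851 promoters searched over the same 250 bases, 13.3% held it. The FOXA-type motif stood at -162 to -156 and -92 to -86 of Lamp3 and, on the reverse strand, at -88 to -82 of Sftpb, against 17.8% of all promoters. TTGCNNAA, held by 9.56% of all promoters, matched once, at -48 to -41 of Slc34a2, where it reads the same on both strands. No matches of different motifs overlapped in these promoters. Abca3 and Lpcat1 held none of the 3 letter strings in the 250 bases, and the motifs did not sort the genes by the direction they took.

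In AT2-like cells the 10 genes together made up 21.9% of all UMIs in the KO-labelled library and 20.4% in the WT library. Sftpc took the most of it, at 166338 CPM in KO-labelled and 154668 CPM in WT cells. Over single AT2-like cells the share from the 10 genes had a median of 21.6% in KO-labelled and 20.3% in WT cells, with 5th and 95th percentiles of 13.2% and 30.5% in KO-labelled and 11.2% and 29.2% in WT cells. AT2-like cells held 97.0% of all UMIs of the 10 genes in the KO-labelled library and 95.4% in the WT library. An unnamed cluster of 53 KO-labelled and 11 WT cells, which carried AT2 and mesothelial markers together, came next, with 17.1% and 17.5% of its UMIs from the 10 genes.

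**Figure D1:**
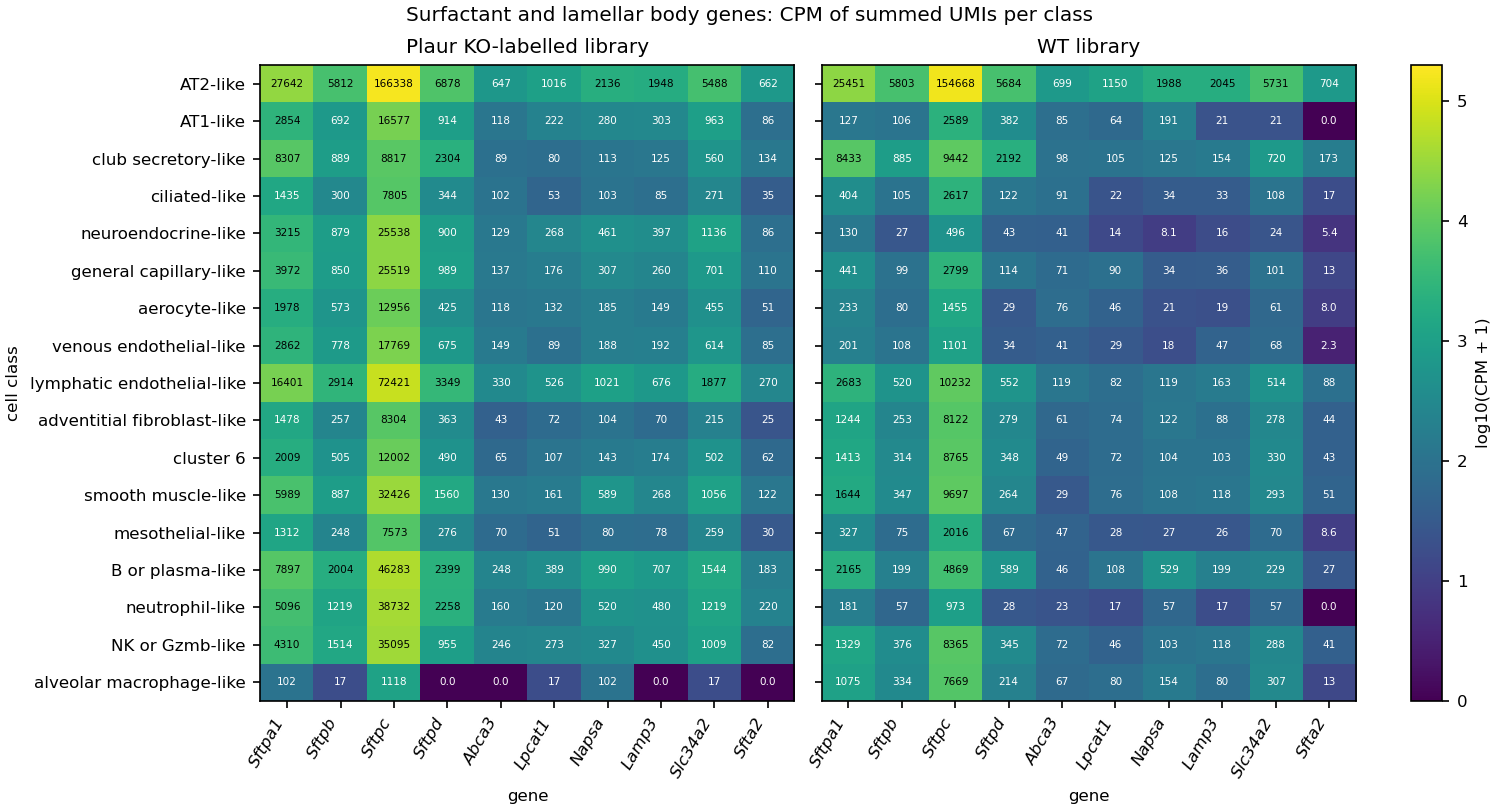
CPM of each gene (columns) in each cell class (rows) for the Plaur KO-labelled library (left) and the WT library (right), coloured by log10(CPM + 1), with the CPM printed in each cell. Among these classes AT2-like cells stand highest for every gene in both libraries, and Sftpa1 (8307 and 8433 CPM) and Sftpd (2304 and 2192 CPM) are close between the libraries in club secretory-like cells, while most other classes show more of every gene in the KO-labelled library.

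For the hydrophobic proteins, Sftpb stood at 5812 CPM in KO-labelled and 5803 CPM in WT AT2-like cells, a log2 ratio of 0.0020 (95% interval -0.0075 to 0.012). Sftpc differed by 0.10 (0.10 to 0.11). Among the collectins, Sftpa1 was 27642 CPM in KO-labelled and 25451 CPM in WT cells (log2 ratio 0.12, 0.11 to 0.12). Sftpd was 6878 CPM in KO-labelled and 5684 CPM in WT cells, a log2 ratio of 0.28 (0.27 to 0.28) or 1.21-fold, the widest gap among the 10 genes. Both collectins were thus somewhat higher in the KO-labelled library, and on this scale Sftpb did not differ beyond counting error.

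Of the other 6 genes, Napsa was higher in the KO-labelled library and 5 were lower on this scale. Lpcat1, the acyltransferase that makes saturated phosphatidylcholine, was 1016 CPM in KO-labelled and 1150 CPM in WT cells (log2 ratio -0.18, -0.20 to -0.16). Abca3, the lipid pump of the lamellar body membrane, was 647 CPM in KO-labelled and 699 CPM in WT cells (-0.11, -0.14 to -0.08). Lamp3, a glycoprotein of the same membrane, was 1948 CPM in KO-labelled and 2045 CPM in WT cells (-0.07, -0.09 to -0.05). Napsa, the aspartic protease that trims the SP-B precursor, was 2136 CPM in KO-labelled and 1988 CPM in WT cells (0.10, 0.09 to 0.12). Slc34a2, the phosphate transporter of the apical membrane, was 5488 CPM in KO-labelled and 5731 CPM in WT cells (-0.06, -0.07 to -0.05). Sfta2, a small secreted protein of the lung, was 662 CPM in KO-labelled and 704 CPM in WT cells (-0.09, -0.12 to -0.06).

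None of the 10 genes was past 1.5-fold in AT2-like cells, where 10.4% of the 13822 genes with at least 20 UMIs were. Their median log2 ratio was -0.03, beside -0.10 over all genes, and their summed share differed by 0.10 (0.098 to 0.102). Since the median of all genes was below 0, the signs of small values hung on the scaling. With TMM scaling, which moved every ratio by 0.098, and with DESeq2 size factors, which moved every ratio by 0.10, Lamp3 (0.029 and 0.032), Slc34a2 (0.036 and 0.039) and Sfta2 (0.0080 and 0.011) changed sign. Sftpb was then 0.10 under both, beyond its counting error. Abca3 was then -0.013 and -0.0096 and Lpcat1 -0.081 and -0.078. Sftpa1, Sftpc, Sftpd and Napsa were above 0 under every scaling tried. Scgb1a1, the secretoglobin of club cells and a mark of airway RNA in other droplets, went the other way in these cells, at 1060 CPM in KO-labelled and 1862 CPM in WT AT2-like cells. Its part in the ratios was not tested.

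The AT2-like cells fell into 6 clusters, and the ratios were read again within each. Sftpd was higher in the KO-labelled library in all 6, by 0.11 to 0.35 on the log2 scale, and Sftpa1 in all 6, by 0.09 to 0.15. Lpcat1 was lower in the KO-labelled library in 5 clusters (-0.24 to -0.11). In cluster 9 it was at 0.08, with an interval that includes 0. Abca3, Slc34a2 and Lamp3 were lower in the KO-labelled library in clusters 0, 1, 2 and 5. In cluster 9 their log2 ratios were 0.26, 0.18 and 0.11. Sftpb was 0.17 in cluster 9, but among the larger clusters it was below 0 in cluster 2 alone (-0.061). The small cluster 15 was also above 0 for these 4 genes (0.05 to 0.09), with intervals that include 0 for all but Sftpb. The median of all genes was -0.06 in cluster 9 and -0.09 in cluster 15. None of the 10 genes was past 1.5-fold in any cluster, beside 8.53%, 9.94%, 19.6%, 12.3%, 12.3% and 14.9% of the genes tested in clusters 0, 1, 15, 2, 5 and 9.

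**Figure D2:**
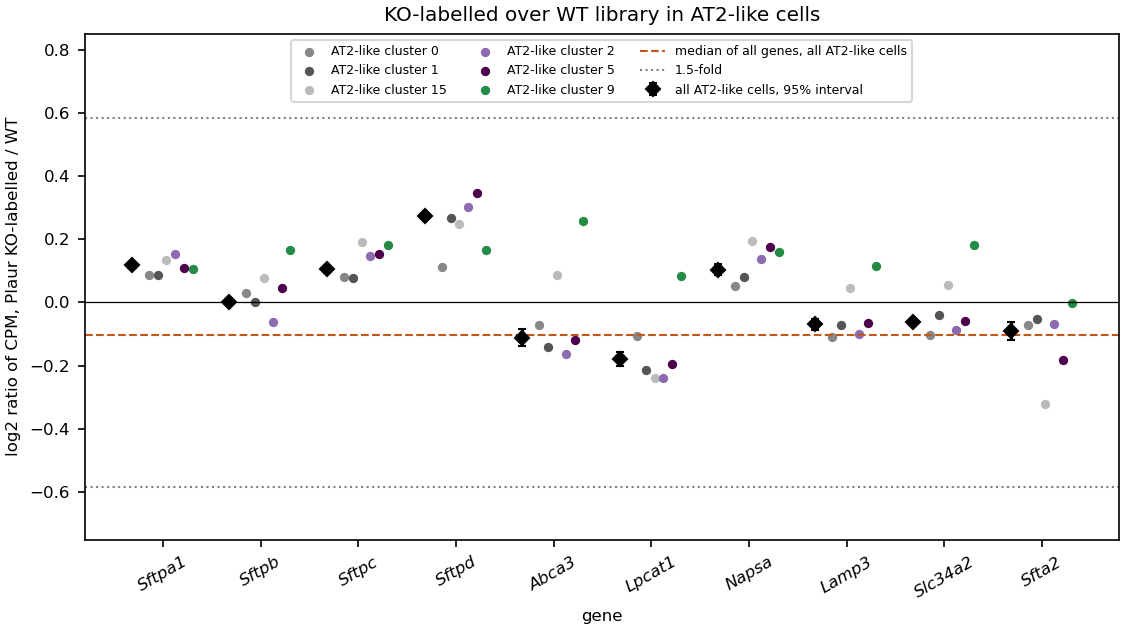
Log2 ratio of CPM, KO-labelled over WT, for each gene in all AT2-like cells (black diamonds with 95% intervals for counting error) and in each of 6 AT2-like clusters (coloured points). Sftpd lies highest at 0.28 and Lpcat1 lowest at -0.18, all points lie inside the dotted 1.5-fold lines, and cluster 9 lies above the other large clusters for Abca3, Lamp3 and Slc34a2.

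Cluster 2 carried a CXC chemokine state, led by Cxcl5 and Cxcl3, chemokines that attract neutrophils. Cluster 5 was mixed and is called by its number. Among its 50 leading genes were 5 CXC chemokine state markers and 4 interferon-gamma type markers, and its first 10 held 3 of each list, Cxcl5, Cxcl3 and Cxcl2 beside Iigp1, Gbp2 and Igtp. Cluster 9 carried a transitional state, with 8 markers of that state among its 50 leading genes. Lgals3, Krt19, Areg and Itgb6 of these were in its first 10, which Akap5 and S100a6 led. Against clusters of all classes, 5 AT1 markers were among its 50 leading genes. Lgals3 and Areg were also in the first 10 of clusters 0 and 15, whose best match was the transitional state with 2 markers. Clusters 0, 1 and 15 met no state rule. No cluster met the rule for a type 2 activated state, but its genes Retnla and Slc26a4 were uneven over the clusters. Retnla ran from 1283 CPM (cluster 0) to 6754 CPM (cluster 5) in the KO-labelled library. In the WT library it ran from 619 CPM (cluster 9) to 2894 CPM (cluster 5). Set against clusters of all classes, both genes were among the first 10 leading genes of clusters 1, 2 and 5, and not of clusters 0, 9 and 15. Cluster 2 made up 20.1% of AT2-like cells in the KO-labelled and 16.6% in the WT library, cluster 5 13.4% and 13.0%, and cluster 9 6.70% and 6.26%.

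Within each library the 10 genes divided across the states, with the same sign in both libraries for every gene but Napsa. In cluster 5, Sftpd was 9231 CPM in KO-labelled and 7256 CPM in WT cells, against 5824 CPM and 5082 CPM in AT2-like cells with no state of the same libraries. The log2 difference from cells with no state was 0.66 in the KO-labelled and 0.51 in the WT library. Sftpa1 was higher in cluster 5 by 0.30 in the KO-labelled and 0.28 in the WT library, and Lamp3 by 0.22 and 0.20. Abca3 stood at 479 CPM in KO-labelled and 520 CPM in WT cells of cluster 5, against 726 CPM and 776 CPM in cells with no state, log2 differences of -0.60 and -0.58. Sftpb differed there by -0.43 in the KO-labelled and -0.45 in the WT library, and Lpcat1 by -0.37 and -0.33.

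Collectin message and Lamp3 were thus higher in clusters 2 and 5 than in the pooled cells with no state, while Abca3, Lpcat1 and Sftpb were lower. The clusters with no state also differed among themselves. In clusters 0, 1 and 2, Lamp3 was 1788, 2003 and 2042 CPM in KO-labelled and 1930, 2104 and 2188 CPM in WT cells. Sftpd was 5066, 6651 and 8190 CPM in KO-labelled and 4689, 5524 and 6636 CPM in WT cells of these clusters. Cluster 2 showed the same signs with smaller sizes, such as 0.49 in the KO-labelled and 0.38 in the WT library for Sftpd, and -0.28 and -0.21 for Abca3. Sftpc differed in cluster 5 by -0.18 and -0.25, Slc34a2 by -0.20 and -0.21 and Sfta2 by -0.25 and -0.14, and Napsa stayed within 0.08 of 0 in both clusters. Past 1.5-fold in cluster 5 were Sftpd (up) and Abca3 (down) in the KO-labelled library and none of the 10 genes in the WT library, beside 24.9% and 23.5% of all genes tested. In cluster 2 none was past 1.5-fold in either library, beside 14.3% and 12.9% of all genes.

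Cells of clusters 2 and 5 were also deeper, with medians of 7457 UMIs in KO-labelled and 7450 UMIs in WT cells of cluster 5, against 5556 and 5824 UMIs in cluster 0. Depth and these levels moved together among all AT2-like cells: Sftpd was 7671 CPM in KO-labelled and 6216 CPM in WT cells of the deepest group, against 5579 CPM and 4899 CPM in the shallowest group, and Abca3 was 569 and 619 CPM against 780 and 868 CPM. The comparison was therefore repeated inside each of 4 depth groups of AT2-like cells, with boundaries at 5141, 6249 and 7622 UMIs. Over the 4 groups the log2 difference of the pooled clusters 2 and 5 from cells with no state was 0.41 to 0.65 in the KO-labelled and 0.36 to 0.57 in the WT library for Sftpd. For Abca3 it was -0.42 to -0.29 in the KO-labelled and -0.44 to -0.27 in the WT library, and for Sftpb -0.37 to -0.23 and -0.35 to -0.20. Sftpa1 (0.18 to 0.27 and 0.13 to 0.22) and Lamp3 (0.17 to 0.24 and 0.14 to 0.22) were higher in every depth group of both libraries. Slc34a2 crossed 0 at matched depth (-0.09 to 0.02 in the KO-labelled and -0.14 to 0.05 in the WT library), as did Napsa (-0.05 to 0.10 and -0.10 to 0.07). Sftpc, Sfta2 and Lpcat1 were below 0 in every depth group, the last at -0.38 to -0.19 and -0.36 to -0.12.

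The transitional cluster differed from clusters 2 and 5. Over all depths, all 10 genes were below their level in cells with no state, with log2 differences in the KO-labelled library from -0.40 (Abca3) to -0.05 (Sftpd) and in the WT library from -0.75 (Abca3) to -0.02 (Sftpd, within counting error). Lamp3, higher in clusters 2 and 5, differed here by -0.35 in the KO-labelled and -0.55 in the WT library, and Slc34a2 by -0.32 and -0.56. Within the 4 depth groups 8 genes were below 0 throughout in both libraries, among them Abca3 (-0.51 to -0.23 in the KO-labelled and -0.91 to -0.46 in the WT library). Sftpd crossed 0 in both libraries (-0.14 to 0.05 and -0.32 to 0.06) and Sfta2 in the KO-labelled library (-0.34 to 0.07). With the 10 genes kept among those that shape clusters, Sftpd in the KO-labelled library was at 0.06. The medians over the 10 genes were -0.23 and -0.38, beside 0.09 and 0.08 over all genes. Past 1.5-fold was Abca3 in the WT library alone, beside 17.6% of all genes in the KO-labelled and 23.3% in the WT library. Cells with under 1% of their UMIs from Sftpc made up 2.31% (1.06% to 4.34%) of cluster 9 in the KO-labelled library and 8.82% (5.55% to 13.2%) in the WT library, against 0.395% and 1.42% of all AT2-like cells. Such cells were a larger share of WT than of KO-labelled cluster 9, where Abca3, Lamp3 and Slc34a2 were higher in the KO-labelled library, and their part in those ratios was not tested.

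**Figure D3:**
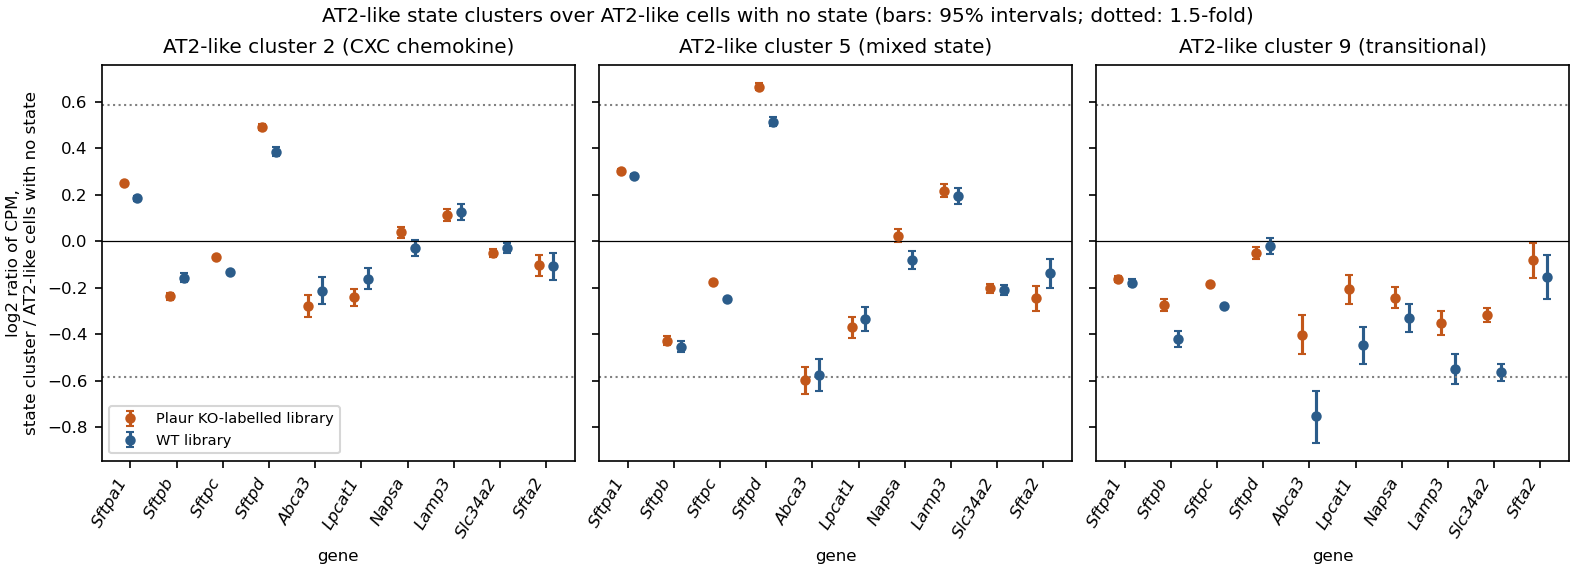
Log2 ratio of CPM in each AT2-like state cluster over AT2-like cells with no state, for each gene, with the KO-labelled library in orange to the left of the WT library in blue and 95% intervals for counting error. In cluster 5 Sftpd lies at 0.66 and 0.51 and Abca3 at -0.60 and -0.58, while in cluster 9 all points lie below 0.

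Outside AT2-like cells the 10 genes had to be set against RNA that AT2 cells shed into other droplets or that comes with them in doublets. The AT2-like profile of each library was scaled to a class by its Sftpc count, and the observed UMIs of every other gene were divided by the expected UMIs. A ratio near 1 says that a gene was present in that class in the proportion AT2-like cells have it. For further comparison, barcodes outside AT2-like cells that held RNA of 7 other AT2 markers were set aside as AT2-marked, a rule chosen after the data were seen.

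Club secretory-like cells stood apart, with 100 cells in the KO-labelled and 358 in the WT library. The leading genes of this cluster held 8 club secretory markers and also 4 mucous secretory markers. Cells of these 2 kinds were not told apart within it, so the values are those of the mixed cluster. Sftpd was 2304 CPM in KO-labelled and 2192 CPM in WT cells, 6.32 times (6.11 to 6.53) and 6.32 times (6.19 to 6.45) the AT2-like proportion. Sftpa1 was 8307 CPM in KO-labelled and 8433 CPM in WT cells, 5.67 and 5.43 times the proportion. Sfta2 was 3.81 and 4.03 times, Sftpb 2.89 and 2.5 times, Abca3 2.59 and 2.30 times and Slc34a2 1.92 and 2.06 times. Lpcat1 (1.48 and 1.5), Lamp3 (1.21 and 1.23) and Napsa (0.994 and 1.03) lay nearer to 1, so the collectins, Sfta2 and Sftpb were in excess of what Sftpc accounts for while Napsa was not.

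Without AT2-marked barcodes, 9 of 100 in the KO-labelled and 28 of 358 in the WT library, Sftpc was 2091 CPM in KO-labelled and 2222 CPM in WT cells and most ratios were higher. Sftpd reached 22.6 times in the KO-labelled and 24.5 times in the WT library, Sftpa1 20.6 and 20.1 times, Sfta2 12.8 and 14.1 times and Sftpb 9.65 and 7.89 times. Abca3 stood at 7.48 and 7.06 times, Slc34a2 at 5.11 and 5.65 times, Lpcat1 at 3.70 and 3.85 times and Lamp3 at 2.55 and 2.61 times. Napsa was 0.895 times in the KO-labelled and 1.70 times in the WT library, from 32 and 181 UMIs. The 9 genes stood in the same order in both libraries, with and without these barcodes.

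**Figure D4:**
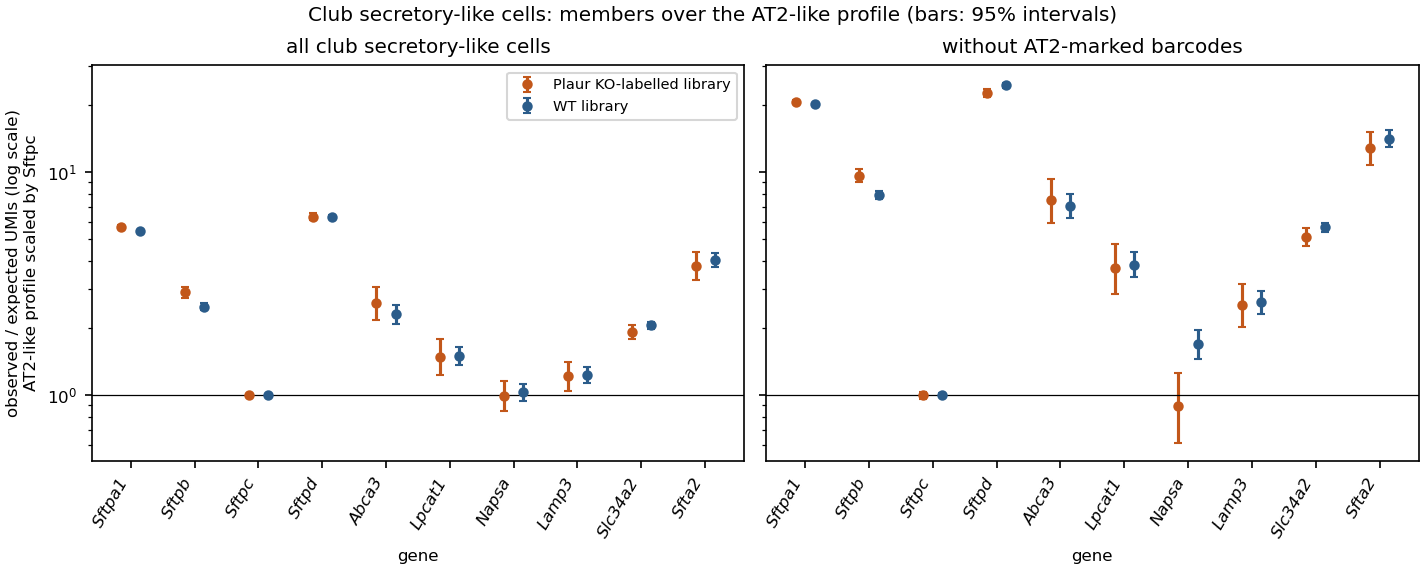
Observed over expected UMIs in club secretory-like cells on a log scale, where the expected value is the AT2-like profile scaled by Sftpc (which is 1 by construction), for all cells (left) and without AT2-marked barcodes (right), with the KO-labelled library in orange left of the WT library in blue and 95% Poisson intervals. Sftpd and Sftpa1 lie highest, at 6.32 and 5.67 in KO-labelled and 6.32 and 5.43 in WT cells over all barcodes, and Napsa lies near 1.

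Shares of cells gave the same picture at equal depth. After thinning every cell to 1000 UMIs, 87.0% of KO-labelled and 83.2% of WT club secretory-like cells had a UMI of Sftpa1, and 73.0% and 64.0% a UMI of Sftpd. In general capillary-like cells, an endothelium not known to make either protein, the shares were 23.3% and 15.1% for Sftpa1 and 7.76% and 2.90% for Sftpd. Thinning left out 164 of 873 KO-labelled and 248 of 1282 WT general capillary-like cells, and no club secretory-like cell. Unthinned, the club secretory-like shares were 100% and 94.4% for Sftpa1 and 98.0% and 86.0% for Sftpd, at medians of 13843.5 and 9915 UMIs, and the general capillary-like shares were 30.2% and 21.6% and 8.48% and 4.6%, at medians of 1341 and 1329.5 UMIs.

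Between the libraries, none of the 10 genes was past 1.5-fold in club secretory-like cells, beside 29.9% of the genes tested there. Their log2 ratios ran from -0.40 for Lpcat1 (-0.70 to -0.10) to 0.07 for Sftpd (0.01 to 0.13), with a median of -0.15 beside -0.30 over all genes. Scgb1a1 alone took 507481 CPM in KO-labelled and 441741 CPM in WT club secretory-like cells, which lowers the CPM of every other gene of the class, more so in the KO-labelled library. Without AT2-marked barcodes Napsa was past 1.5-fold, lower in the KO-labelled library (log2 ratio -1.01), beside 31.6% of the genes tested.

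Abca3 exceeded the AT2-like proportion in many classes. In ciliated-like cells it was 102 CPM in KO-labelled and 90.9 CPM in WT cells, 3.37 times (3.04 to 3.73) and 7.68 times (7.05 to 8.36) the proportion, while Lpcat1 (1.11 and 1.15) and Napsa (1.03 and 0.999) were close to it. Sftpc, which sets the expected value, was 7805 CPM in KO-labelled and 2617 CPM in WT ciliated-like cells. Without AT2-marked barcodes the Abca3 ratios were 17.1 and 32.9 times, at 82.0 CPM and 86.3 CPM, beside 1.70 and 2.69 times for Lpcat1 and 1.25 and 1.26 times for Napsa. After thinning, 8.87% of KO-labelled and 9.72% of WT ciliated-like cells had a UMI of Abca3, beside 4.36% and 1.62% in the fibroblast cluster 6, where Abca3 was 1.40 and 1.25 times the proportion. Thinning left out 3 KO-labelled and 6 WT ciliated-like cells and 16 and 24 cells of cluster 6. Unthinned, the shares were 40.1% and 40.3% of ciliated-like cells, at medians of 5954 and 5979 UMIs, and 8.90% and 8.5% of cluster 6, at medians of 2733 and 2989 UMIs.

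In aerocyte-like cells, the capillary cells of gas exchange, Abca3 was 2.33 and 11.6 times the AT2-like proportion in the KO-labelled and WT library, and in general capillary-like cells 1.38 and 5.61 times. Without AT2-marked barcodes Abca3 was 13.9 and 21.7 times in aerocyte-like cells, at 64.9 CPM and 74.9 CPM, and 5.98 and 15.1 times in general capillary-like cells, at 53.2 CPM and 61.9 CPM. Lpcat1 was 1.13 and 4.31 times in general capillary-like cells and 1.67 and 4.26 times in aerocyte-like cells. Without AT2-marked barcodes it was 4.90 and 11.4 times in general capillary-like cells and 7.54 and 6.24 times in aerocyte-like cells, above the proportion in both libraries. Mesothelial-like cells had Abca3 at 2.39 times in the KO-labelled and 5.12 times in the WT library, and without AT2-marked barcodes at 6.09 and 13.6 times. Sftpa1, Sftpb, Sftpd, Napsa, Lamp3, Slc34a2 and Sfta2 lay between 0.833 and 1.11 times in general capillary-like cells of both libraries, all barcodes included. For Abca3, reads of the overlapping opposite-strand gene cannot be told apart, as said above. Barcodes left out by the cell filter also held more Abca3 beside Sftpc than AT2-like cells did. In the KO-labelled library the counts were 125 and 15113 UMIs, against 24361 and 6259177 UMIs in AT2-like cells. In the WT library they were 147 and 10988 UMIs, against 17576 and 3888148 UMIs. The part of such RNA in the Abca3 ratios was not tested.

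Napsa stood out in classes of blood cells. B or plasma-like cells, a class that a sort against CD45.2 would leave out, still numbered 51 in the KO-labelled and 200 in the WT library. Napsa was 990 CPM in KO-labelled and 529 CPM in WT cells of this class, 1.67 and 8.46 times the AT2-like proportion. Without AT2-marked barcodes it was 479 CPM in KO-labelled and 529 CPM in WT cells, 46.9 and 41.2 times. A Napsa UMI was found after thinning in 47.8% of KO-labelled and 43.3% of WT B or plasma-like cells, against 4.37% and 1.26% of general capillary-like cells, and thinning left out 5 and 22 B or plasma-like cells. Unthinned, the shares were 66.7% and 56.0% at medians of 1422 and 1367 UMIs in B or plasma-like cells, and 5.27% and 1.72% in general capillary-like cells. In the same barcodes without AT2 marks Sftpa1, Sftpd and Lamp3 were also over the proportion, at 13.4, 25 and 27.2 times in the KO-labelled and 10.7, 13.5 and 14.6 times in the WT library, from 28 to 712 UMIs. The UMIs of Sftpd and Lamp3 lay in few of these cells. Unthinned, 13.6% of KO-labelled and 8.76% of WT cells had Sftpd and 13.6% and 6.70% had Lamp3. For Napsa the shares were 61.4% and 54.6%. An unnamed cluster led by Cd52, Tyrobp and Fcer1g, genes of myeloid cells, had Napsa at 854 CPM in 12 KO-labelled and 624 CPM in 25 WT cells. Of these, 1 KO-labelled and no WT cell was AT2-marked. The WT value was 112 times (86.8 to 143) the proportion. Its expected value rests on 45 Sftpc UMIs, whose counting error is not in the interval. Napsa too overlaps an opposite-strand gene, with the same limit.

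AT1-like cells, the flat gas-exchange cells that AT2 cells give rise to, were few, 45 in the KO-labelled and 16 in the WT library. Their marker Ager stood at 16242 CPM in KO-labelled and 18572 CPM in WT cells. Sftpc was 16577 CPM in KO-labelled and 2589 CPM in WT AT1-like cells, and the 10 genes took 2.30% and 0.359% of UMIs. In the KO-labelled library 5 AT2-marked barcodes of 45 held 74.3% of these UMIs, and there were none in the WT library. Over the AT2-like proportion, the KO-labelled cells ran from 1.04 for Sftpa1 to 2.19 for Lpcat1, and the WT cells were too few to be set against it.

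In most other classes the summed share of the 10 genes was higher in the KO-labelled library. It was 3.30% in KO-labelled and 0.380% in WT general capillary-like cells, 1.70% and 0.203% in aerocyte-like cells, 2.34% and 0.165% in venous endothelial-like cells, 1.05% and 0.355% in ciliated-like cells and 0.998% and 0.269% in mesothelial-like cells. Adventitial fibroblast-like cells (1.09% and 1.06%) and club secretory-like cells (2.14% and 2.23%) were close between the libraries. In general capillary-like cells all 10 genes were past 1.5-fold higher in the KO-labelled library, beside 8.26% of the genes tested there, and so they were in aerocyte-like (7.7%), venous endothelial-like (9.03%) and mesothelial-like cells (5.79%). Scgb1a1 had the opposite direction in general capillary-like cells, at 197 CPM in KO-labelled and 2105 CPM in WT cells.

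Deep barcodes with AT2 marks held much of these sums. In general capillary-like cells 32 of 873 KO-labelled barcodes were AT2-marked and held 91.8% of the UMIs of the 10 genes, and 5 of 1282 WT barcodes held 64.9%. The marked barcodes were deep, with medians of 7565 UMIs in the KO-labelled and 6595 UMIs in the WT library, against 1320 and 1327 UMIs in the other barcodes of the class. The median barcode had 0.158% of its UMIs from the 10 genes in the KO-labelled and 0.117% in the WT library. Without marked barcodes the sums were 0.325% and 0.135%, and the number of genes past 1.5-fold was 8 of 10, beside 6.38% of all genes. In mesothelial-like cells 8 of 10 were then past 1.5-fold higher (5.44% of all genes) and in aerocyte-like cells 4 of the 8 with at least 20 UMIs (6.08%). In venous endothelial-like cells the sums were then 0.195% and 0.0893%, and the 6 genes that still had 20 UMIs were past 1.5-fold higher (8.93%). In adventitial fibroblast-like cells 6 of the 9 with at least 20 UMIs were then past 1.5-fold lower in the KO-labelled library, beside 14.9% of all genes. Over all classes outside AT2-like cells, 203 of 3155 KO-labelled and 142 of 6443 WT barcodes were marked, and they held 83.9% and 68.1% of the UMIs of the 10 genes found there. The KO-labelled library also held the larger share of AT2-like cells and had fewer doublets marked, and the part of either in these sums was not tested.

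**Figure D5:**
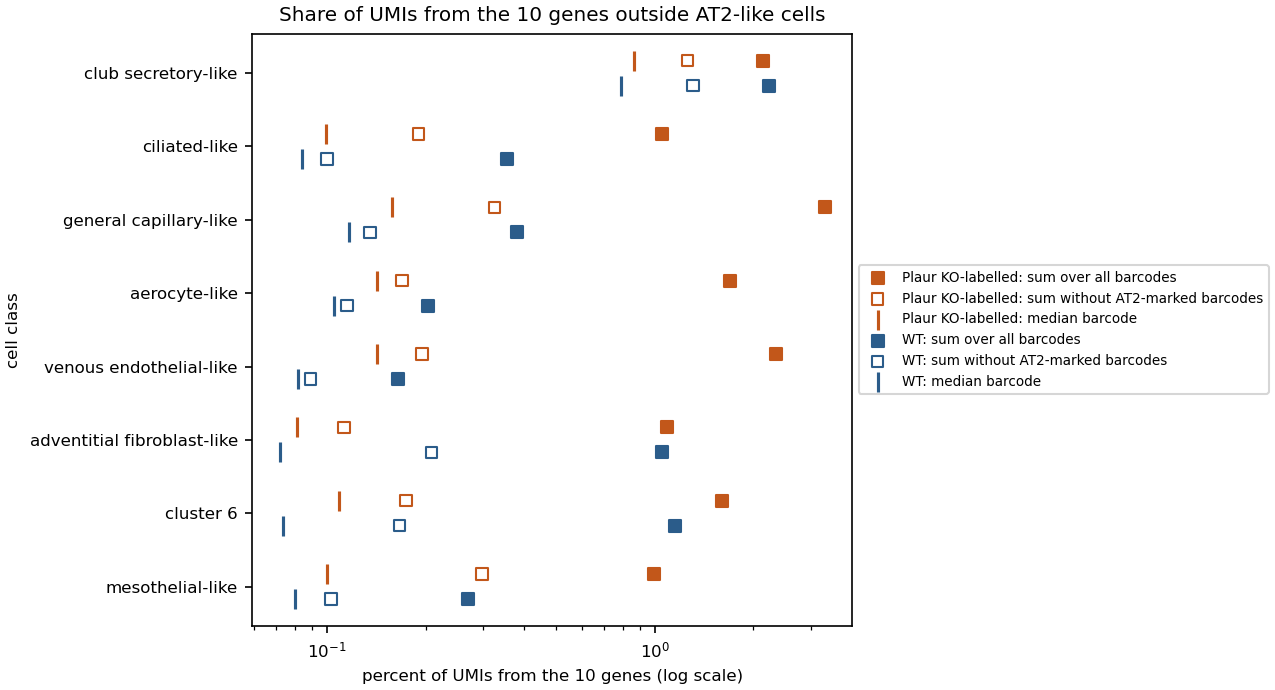
Percent of UMIs from the 10 genes (log scale) in 8 classes outside AT2-like cells, for the KO-labelled library (orange, upper row of each class) and the WT library (blue, lower row), as the sum over all barcodes (filled squares), the sum without AT2-marked barcodes (open squares) and the median barcode (bars). In general capillary-like cells the sums are 3.30% and 0.380%, the medians 0.158% and 0.117%, and only club secretory-like cells have medians near 1% (0.863% and 0.787%).

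Other genes of surfactant biology were read in AT2-like cells from 5 lists, and none was past 1.5-fold in either direction among those with at least 20 UMIs, beside the same 10.4% of all genes. All 8 regulators of AT2 identity and lipid synthesis were measured (Nkx2-1, Cebpa, Foxa1, Foxa2, Etv5, Gata6, Srebf1 and Tfcp2l1), and their median log2 ratio was -0.12, beside -0.10 over all genes. Nkx2-1, the homeodomain factor of lung epithelium, was 296 CPM in KO-labelled and 297 CPM in WT cells. Of 13 lipid synthesis genes 12 were measured, with a median of -0.04, from -0.53 for Elovl1, a fatty acid elongase, to 0.44 for Mfsd2a, a carrier of lysophospholipid. The 19 genes of lamellar body assembly and trafficking had a median of -0.10 and ran from -0.28 for Hps1 to 0.09 for Ap3d1, both of them genes of lysosome-related organelles. The 4 proteases of surfactant processing had a median of 0.02, with Ctsh, a cathepsin that takes part in SP-B and SP-C processing, at 1213 CPM in KO-labelled and 1172 CPM in WT cells. Among 8 genes of secretion, recycling and pool size the median was 0.03, and P2ry2, the ATP receptor that triggers surfactant release, was highest (0.35, 0.21 to 0.49), at 31.7 CPM in KO-labelled and 24.9 CPM in WT cells.

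Across 37 combinations of class and library with at least 20 cells, the genes whose log2(CPM + 10) lay closest to the mean of the 10 were Cxcl15 (Pearson r 0.964), Fasn (0.963), S100g (0.959), Kcnj15 (0.955), Hc (0.954), Lgi3 (0.950), Chil1 (0.949), Scd1 (0.947), Etv5 (0.914) and Ppp1r14c (0.913), among 12975 genes. Of these, 7 are markers that named the AT2-like class. Between pairs of the 10 genes r ran from 0.728 (Abca3 and Napsa) to 0.988 (Sftpa1 and Sftpd). These points share 2 libraries and their free RNA, so the values describe the data and carry no test.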

How the data were processed

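The authors deposited raw counts of UMIs for each gene in each barcode, made with Cell Ranger (7.0.0 and 7.1.0 and the build mm10 per the submitters' processing notes, 7.0.0 per the file headers). How barcodes were chosen, and whether intronic reads or strand were used, is not given in the sources used here.

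A barcode was kept with 500 or more genes and no more than 15% of its UMIs mitochondrial, and doublets marked by Scrublet (scanpy 1.11.5) were removed. The libraries were pooled for clustering with no integration step (2000 variable genes without the 10 genes and Plaur, 30 principal components, Leiden resolution 1, leidenalg 0.10.2). A class name needed 3 or more markers of the class within the 50 top genes of a cluster, more than any other class had and under 3 from another compartment, which named 24 of 28 clusters. AT2-like states were named by the same number of state markers. Rebuilt classes can differ from the study's own.

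UMIs were summed per class and library. Log2 ratios have exact conditional binomial 95% intervals, shares Clopper-Pearson intervals and observed over expected values exact Poisson intervals. The Poisson intervals cover the observed UMIs only, with the expected UMIs taken as fixed. Compared classes had 20 or more cells and genes 20 or more UMIs over both libraries, and 1.5-fold stood in for a test. A gene at 0 UMIs was set to 3 UMIs per library. A barcode outside AT2-like cells was AT2-marked when Hc, S100g, Egfl6, Lyz1, Scd1, Lgi3 and Acoxl together reached 20% of their median share in AT2-like cells and 3 UMIs. Positions are from GENCODE M21. The ratio step was tested on simulated data.

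The genes, lists and markers were chosen with earlier results of these data known. All 10 genes are named, with the 10 genes of highest r to them, and pathway genes were named after their values were seen. Alternatives covered TMM (edgeR 4.0.16), DESeq2 1.42.0 size factors, other totals, cell filters, doublet treatment, clustering, thinning to 1000 UMIs and means over cells.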

Additional observations from a re-analysis of the deposited data

Results flagged for a closer look

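AT2-like cluster 9, the transitional one, and AT2-like clusters 0, 1, 2 and 5 had opposite directions between the libraries for Abca3, Lamp3 and Slc34a2, with intervals on both sides that exclude 0. The difference between clusters was not tested, and it was picked out from the values themselves. Abca3 had a log2 ratio, KO-labelled over WT, of 0.26 in cluster 9, against -0.072 in cluster 0, -0.14 in cluster 1, -0.16 in cluster 2 and -0.12 in cluster 5. Slc34a2 was 0.18 in cluster 9, against -0.10, -0.039, -0.088 and -0.059 in clusters 0, 1, 2 and 5. Lamp3 was 0.11 in cluster 9, against -0.11, -0.071, -0.099 and -0.064 in the same clusters. The small cluster 15 lay on the side of cluster 9, at 0.086 for Abca3, 0.054 for Slc34a2 and 0.047 for Lamp3, with intervals that include 0. Sftpb was 0.17 in cluster 9 and had the opposite direction in cluster 2 alone (-0.061), with 0.030, 0.0020, 0.078 and 0.044 in clusters 0, 1, 15 and 5. The negative values of Lamp3 and Slc34a2 are of about the size by which TMM and DESeq2 factors moved the ratios over all AT2-like cells (0.098 and 0.10), where both genes changed sign.

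Barcodes left out by the cell filter are in no comparison above other than the counts of Abca3 beside Sftpc. They held 20435 UMIs of the 10 genes in 662 KO-labelled barcodes and 15853 UMIs in 934 WT barcodes, or 3.63% and 1.73% of their UMIs. Sftpc stood at 26859 CPM in the KO-labelled and 12010 CPM in the WT barcodes left out.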

How the results depend on the processing

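None of the 10 genes was past 1.5-fold in AT2-like cells in any alternative run. The median over the genes, -0.03 on the log2 scale as reported, became 0.068 with TMM factors, 0.071 with DESeq2 size factors, 0.036 with totals without the 50 most abundant genes, -0.0035 with totals without the 10 genes and -0.017 with the libraries clustered apart. Their summed level, 0.10 as reported, was 0.198 with TMM factors, 0.201 with DESeq2 size factors, 0.167 without the 50 most abundant genes in the totals, 0.127 without the 10 genes in the totals and 0.113 with the libraries clustered apart. It was 0.102 with the looser cell filter, 0.103 with the stricter one, 0.103 at resolution 2, 0.103 with the genes kept among those that shape clusters, 0.0950 with doublets kept and 0.0978 with the top 8% by doublet score taken out. Over all alternatives and within clusters, Sftpd ran from 0.11 to 0.38, Sftpa1 from 0.086 to 0.22, Lpcat1 from -0.24 to 0.083 and Abca3 from -0.16 to 0.26. With the barcodes left out by the cell filter as the profile in place of AT2-like cells, Abca3 in WT club secretory-like cells was 0.778 times the expected UMIs, below 1. Lpcat1 and Lamp3 in the WT cells, and Napsa in both libraries, were also below 1 with this profile. The cause was not tested. Over all alternatives tried for the club secretory-like ratios, 61 of 72 values moved beyond counting error. In addition 1 reversed, the WT Abca3 value above. Of 120 values of AT2-like states 61 moved beyond counting error. No paired analysis was possible because there is 1 library per genotype, and for the same reason no replicate could be left out. Genes with under 20 UMIs, classes with under 20 cells in a library and shares below the free RNA of other classes are beyond what this depth resolves.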
